A study of Mus musculus with 24 samples.

Results

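Sox5, Sox6, Sox9, Prrx1, Prrx2, Runx1, Runx2, Runx3, Twist1 and Gdf5 are 10 genes that govern limb mesenchyme and its skeleton, and were taken as a group by name. A gene was counted as measured when a probe set on the array carried its symbol alone, and the probe set with the highest mean over all 24 arrays was used. By this rule 9 of the 10 genes were measured, each by 1 probe set, of 19937 genes in all. Runx2 was not analysed here for its level. Of the 10, all but Gdf5, a secreted ligand, encode transcription factors.

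RNA was taken from the left and right hindlimb buds of E10.5 mouse embryos, 12 Nipbl+/- and 12 wild type littermates, and each embryo was hybridised to 1 Affymetrix Mouse Gene 1.0 ST array. Nipbl+/- embryos, of the line named RRS, carry 1 mutant allele of Nipbl, which encodes the protein that loads cohesin onto chromosomes. The mutation is present in every cell of the embryo, so effects that arise in limb mesenchyme and effects that reach it from elsewhere cannot be told apart. In whole buds, fewer cells of a type and less RNA per cell cannot be told apart either.

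Limb skeleton forms inside a bud of loose mesenchyme that expresses the paired-type homeodomain proteins Prrx1 and Prrx2 and the basic helix-loop-helix protein Twist1. Cells that will make cartilage switch on Sox9, which then acts with Sox5 and Sox6 on the genes of cartilage matrix, and Gdf5 later marks the bands where joints form. Runx proteins bind DNA together with Cbfb, and in skeletal cells they drive cartilage maturation and bone formation at stages later than the bud studied here.

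The genes lie on 9 mouse chromosomes. In RefSeq on build GRCm38.p6, Sox9 spans chr11:112782210-112787757, Sox5 chr6:143828425-144782287, Sox6 chr7:115470872-116040776, Prrx1 chr1:163245119-163315145, Prrx2 chr2:30845064-30881251 and Gdf5 chr2:155941023-155945367. Twist1 spans chr12:33957671-33959831, Runx1 chr16:92601466-92826074, Runx2 chr17:44495987-44814797 and Runx3 chr4:135120645-135177990. RefSeq promoter sequences of the same build, from 250 bases before to 50 bases after a start, were at hand for 8 of the 10 genes, 15 promoters in all. Those of Sox9 and Gdf5 are named only.

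The Runx genes shared a feature of sequence that the choice of genes did not use. The Runx motif TGTGGT, which reads ACCACA on the other strand, was searched on both strands, and 16.8% of 32851 mouse promoters held at least 1 match. Runx1, Runx2 and Runx3 each held 2 matches in the same orientation with 2 bases between them, a spacing that was noticed after the sequences had been seen. The same pair occurred in 7 promoters of the table, 0.0213%, and besides the Runx genes those were Gm16225, whose promoter overlaps that of Runx3 on the opposite strand, Gm15462, Olfr24 and Gm12236. The windows are printed to show that likeness, 30 bases each, 5′ to 3′ on the gene's own strand, with the motif in capitals.
Runx1, chr16:92826025-92826054, minus strand: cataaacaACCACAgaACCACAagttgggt
Runx2, chr17:44814583-44814612, minus strand: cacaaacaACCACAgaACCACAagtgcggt
Runx3, chr4:135120503-135120532, plus strand: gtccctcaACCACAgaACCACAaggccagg
Counted in bases from the start, with negative numbers before it, the first match began at 28 in Runx1, at 23 in Runx2 and at -134 in Runx3. A second start of Runx1, and one of Runx3, held 0 matches, and the single probe set of each gene does not separate the starts.

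Sox5 varied with Prrx1 and with Prrx2 across embryos in the values given further on, so the 250 bases before 1 start of each are printed for comparison. The Sox5 start is the only one at hand for that gene. It lies well inside the span of Sox5, so it is not the start at the gene's outer end. Searched on both strands were ACAAT, a core of Sox binding sites, present in 27.7% of all such stretches, and TAATTA, a homeodomain core, present in 4.84%. Matches are in capitals, 5′ to 3′ on the gene's strand.
Sox5, chr6:143947107-143947356, minus strand: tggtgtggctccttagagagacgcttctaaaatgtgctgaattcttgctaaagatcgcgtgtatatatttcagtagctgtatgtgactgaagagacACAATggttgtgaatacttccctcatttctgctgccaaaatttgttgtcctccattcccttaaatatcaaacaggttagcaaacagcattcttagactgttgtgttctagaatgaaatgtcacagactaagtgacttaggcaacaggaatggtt
Prrx1, chr1:163313651-163313900, minus strand: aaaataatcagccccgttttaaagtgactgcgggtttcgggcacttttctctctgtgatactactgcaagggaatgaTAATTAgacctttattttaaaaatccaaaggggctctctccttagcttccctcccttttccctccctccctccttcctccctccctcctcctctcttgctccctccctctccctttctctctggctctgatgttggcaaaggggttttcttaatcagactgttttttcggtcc
Prrx2, chr2:30845117-30845366, plus strand: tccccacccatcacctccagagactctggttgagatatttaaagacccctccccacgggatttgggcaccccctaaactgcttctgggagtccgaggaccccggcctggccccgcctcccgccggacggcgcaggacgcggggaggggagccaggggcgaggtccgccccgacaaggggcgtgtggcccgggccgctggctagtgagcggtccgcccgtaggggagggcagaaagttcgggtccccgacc
Sox5 held 1 Sox match, Prrx1 held 1 homeodomain match, and Prrx2 held neither. The GC content was 39.6% for Sox5, 47.6% for Prrx1 and 70.0% for Prrx2. With the 50 bases after the start included, Prrx1 also held 1 Sox match. A match describes letters only and shows no binding.

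Levels are log2 intensities, in which 1 unit is a doubling of signal, and the level of 1 probe set cannot be read against that of another. Between all genes the median difference, Nipbl+/- minus wild type, was -0.0049, with 53.5% of genes below 0. At an adjusted p under 0.05 by limma, 162 genes were called, 57 higher (0.286%) and 105 lower (0.527%) in Nipbl+/- buds. Nipbl itself averaged 9.86 ± 0.121 in Nipbl+/- buds and 10.52 ± 0.119 in wild type buds (SD, n = 12 each), a ratio of 0.630 with an adjusted p of 2.42e-09 by limma, and the genotypes did not overlap. Nipbl+/- replicate 2 and wild type replicate 3 stood apart from the other arrays, with a median absolute deviation from the gene medians of 0.166 each, against 0.0501 to 0.122 for the others. Calls that change without these embryos are given with both values. As a description of array signal only, the hindlimb genes Tbx4 and Pitx1 lay at the 96.6 and 95.7 percentiles of all genes and the forelimb gene Tbx5 at the 22.1 percentile, places that probe affinity also sets. Of 9 limb mesenchyme markers, a list that includes Prrx1 and Prrx2, 1, Lhx9, was higher in Nipbl+/- buds. Of 8 ectoderm markers 1, Krt5, was lower, but only 4 of the 8 had a ratio under 1, and the median difference was -0.0015. Epcam of the same list had a ratio of 1.11, with an unadjusted p of 0.00809 and an adjusted p of 0.254 by limma. Of 4 Schwann cell and neural crest markers 1, Erbb3, was higher (adjusted p of 0.0499). Among markers of endothelium (8 genes), red cells (5), macrophages (8), muscle precursors (7), neurons (6) and somite (5) none was called by limma, and 4 of them had an unadjusted p under 0.05, where 9.26% of all genes did.

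None of the 9 regulators was called between Nipbl+/- and wild type buds, where 0.813% of all genes were. At an unadjusted p under 0.05 there was 1 of 9, Sox9, against 9.26% of all genes, a share near the background. The count stayed at 0 in all 11 other settings of the limma fit. For every one of the 9 genes the ranges of the genotypes overlapped, as they did for all genes but 0.0552%.

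**Figure D1:**
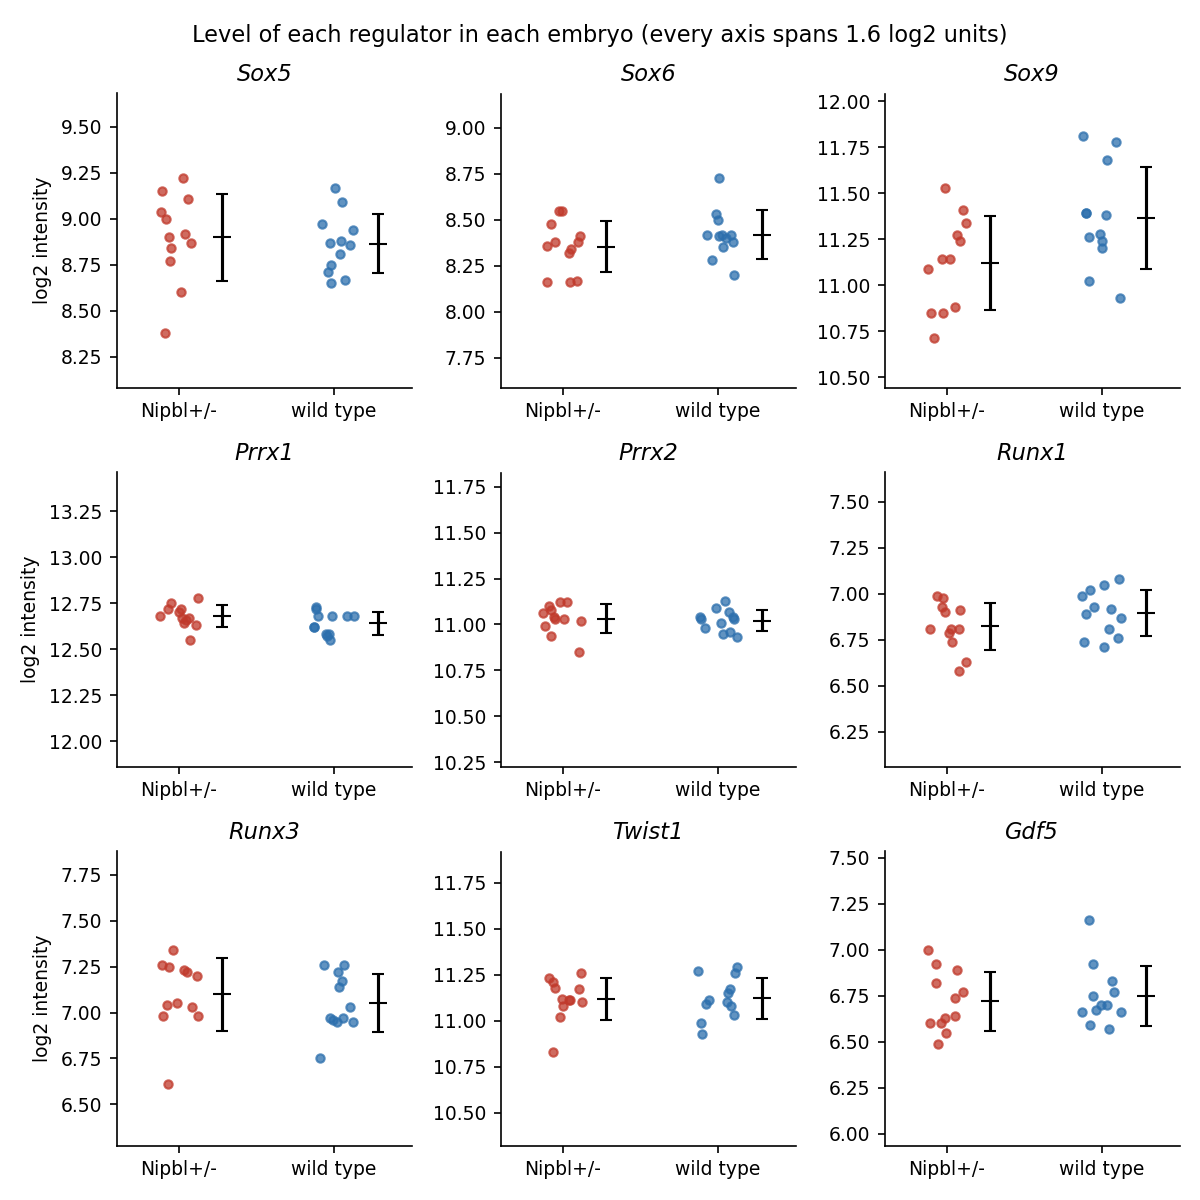
Level of each of the 9 measured regulators (log2 intensity) in each embryo, Nipbl+/- on the left of each panel and wild type on the right, with bars for the mean and SD (n = 12 each). Every axis spans 1.6 log2 units, so that the wide scatter of Sox9 and the narrow scatter of Prrx1 can be compared, and in every panel the genotypes overlap.

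Sox9, the regulator that commits mesenchyme to cartilage, had the largest difference among the 9. Its level ran from 10.71 through a median of 11.14 to 11.53 in Nipbl+/- buds, and from 10.93 through a median of 11.33 to 11.81 in wild type buds. Nipbl+/- replicates 1, 3, 11 and 12 lay below the lowest wild type embryo, wild type replicates 5, 6 and 10 lay above the highest Nipbl+/- embryo, and the other embryos overlapped. The means were 11.12 ± 0.255 in Nipbl+/- buds and 11.36 ± 0.276 in wild type buds (SD, n = 12 each). The difference was -0.24 ± 0.0997 (SE), a ratio of 0.846 with a 95% interval from 0.734 to 0.974, and 10 of 12 Nipbl+/- embryos lay below the wild type mean. The unadjusted p was 0.022 and the limma adjusted p over all genes was 0.394. Over the other settings the difference stayed between -0.33 and -0.23 and the adjusted p between 0.110 and 0.441, so Sox9 did not pass the test in any of them.

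Sox5 and Sox6 encode the partners of Sox9 on cartilage genes. Sox5 ran from 8.38 (median 8.91) to 9.22 in Nipbl+/- buds and from 8.65 (median 8.87) to 9.17 in wild type buds. Both the lowest and the highest of the 24 embryos were Nipbl+/-. The difference was 0.03 ± 0.077 (SE), with a ratio between 0.917 and 1.14 at 95%, and the adjusted p was 0.969 by limma. Sox6 ran from 8.16 (median 8.37) to 8.55 in Nipbl+/- buds and from 8.20 (median 8.42) to 8.73 in wild type buds, with 9 of 12 Nipbl+/- embryos below the wild type mean. Its ratio was 0.956, with a 95% interval from 0.886 to 1.03 and an adjusted p of 0.810 by limma. A fall of Sox6 larger than the lower bound, or a rise of Sox5 larger than the upper one, lies outside these intervals.

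Prrx1 and Prrx2, the homeodomain regulators of early limb mesenchyme, had the tightest values of the group. Prrx1 ran from 12.55 (median 12.67) to 12.78 in Nipbl+/- buds and from 12.55 (median 12.65) to 12.73 in wild type buds. Although 10 of 12 Nipbl+/- embryos lay above the wild type mean, the difference of 0.04 ± 0.032 (SE) did not pass the test, with a ratio between 0.982 and 1.07 at 95% and an adjusted p of 0.807 by limma. Prrx2 ran from 10.85 (median 11.03) to 11.12 in Nipbl+/- buds and from 10.93 (median 11.03) to 11.13 in wild type buds. Its ratio lay between 0.959 and 1.06 at 95%, the adjusted p was 0.984, and the medians of the genotypes differed by less than the last digit printed. Twist1, which keeps mesenchyme undifferentiated and patterns the bud, ran from 10.83 (median 11.11) to 11.26 in Nipbl+/- buds and from 10.93 (median 11.11) to 11.29 in wild type buds. Its ratio was 0.997, with a 95% interval from 0.932 to 1.07, and the lowest of all 24 values was that of Nipbl+/- replicate 2, one of the embryos that stood apart.

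Runx1 and Runx3, best known for blood cells and, for Runx3, sensory neurons, gave array signals at the 39.3 and 42.6 percentiles of all genes. Runx1 ran from 6.58 (median 6.81) to 6.99 in Nipbl+/- buds and from 6.71 (median 6.91) to 7.08 in wild type buds, a ratio of 0.95 with a 95% interval from 0.883 to 1.02 and an adjusted p of 0.744 by limma. Runx3 ran from 6.61 (median 7.12) to 7.34 in Nipbl+/- buds and from 6.75 (median 7.0) to 7.26 in wild type buds, a ratio of 1.03 with an interval from 0.937 to 1.14 and an adjusted p of 0.941. Gdf5, a ligand of the BMP family that marks joints, ran from 6.49 (median 6.69) to 7.0 in Nipbl+/- buds and from 6.57 (median 6.70) to 7.16 in wild type buds. Its ratio was 0.980, with an interval from 0.896 to 1.07 and an adjusted p of 0.968, and its highest value was that of wild type replicate 3, the other embryo that stood apart. Whether these dim probe sets track low transcript or only background was not tested.

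**Figure D2:**
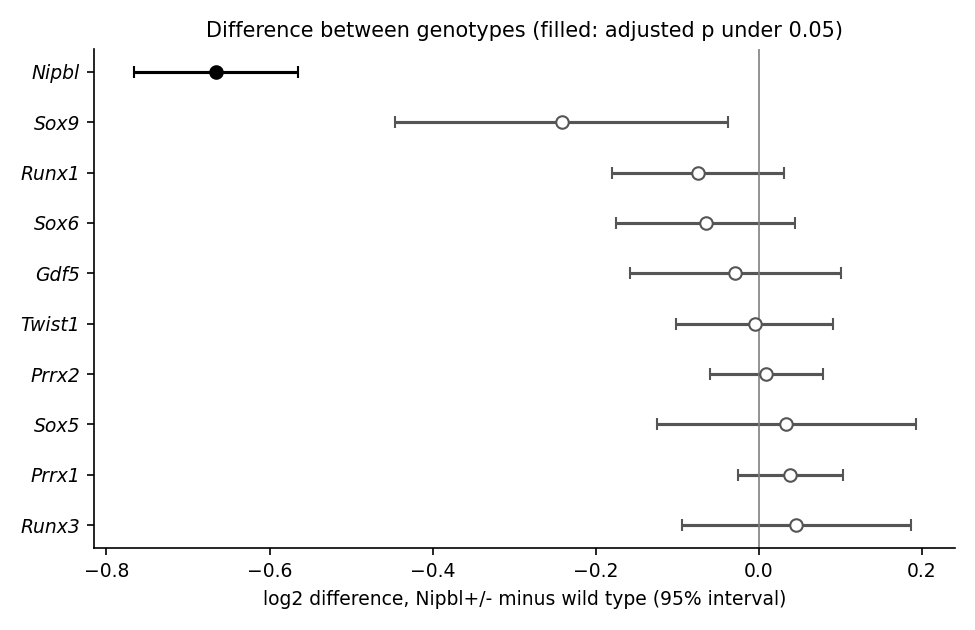
Difference in log2 intensity, Nipbl+/- minus wild type, for Nipbl and the 9 regulators, with 95% intervals from limma (n = 12 each). Only Nipbl, at -0.67, is filled for an adjusted p under 0.05, and the interval of Sox9, from -0.45 to -0.04, is the only one among the regulators that does not include 0.

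The regulators differed in how much they varied among embryos of the same genotype. The SD within genotype was 0.266 for Sox9, larger than that of 97.9% of all genes, and 0.202 for Sox5, at the 89.9 percentile. Runx3 (0.177), Gdf5 (0.161), Sox6 (0.134), Runx1 (0.127) and Twist1 (0.113) followed. Prrx2 at 0.0697 and Prrx1 at 0.0617 were near the bottom, at the 4.81 and 2.57 percentiles.

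That scatter was shared. Deviations from the genotype mean were correlated over the 24 embryos for all 36 pairs of regulators, with 100000 permutations within genotype and adjustment over the 36. Past an adjusted p of 0.05 were 6 pairs of regulators, and the 3 strongest joined Sox9, Sox5 and Prrx1. The permutations took embryos of a genotype as exchangeable, and a link between same-numbered embryos was not allowed for. Such embryos had r = 0.61 for Sox9, 0.68 for Prrx1 and 0.49 for Sox5 (n = 12 pairs of embryos), none past an adjusted permutation p of 0.05. Sox9 and Prrx1 had r = 0.82 and rho = 0.84, with a permutation p of 1e-05 for each, the smallest the permutations can give, and an adjusted p of 0.00018. Without the 2 embryos farthest from the median of Sox9 r was 0.77, and it was 0.83 within Nipbl+/- and 0.80 within wild type embryos. Sox5 and Sox9 had r = 0.75 and rho = 0.75 (permutation p of 1e-05 and 8e-05, adjusted 0.00018 and 0.00132), with r = 0.70 without the 2 farthest embryos, 0.84 within Nipbl+/- and 0.67 within wild type embryos. Sox5 and Prrx1 had r = 0.78 and rho = 0.72 (permutation p of 2e-05 and 0.00011, adjusted 0.00024 and 0.00132), with r = 0.66 without the 2 farthest, 0.85 within Nipbl+/- and 0.71 within wild type embryos. Wild type replicates 6 and 10 were the 2 highest wild type embryos for Sox5 and Prrx1 and among the 3 highest for Sox9, while Nipbl+/- replicate 12 was the lowest of all 24 for Sox5 and Sox9 and the lowest Nipbl+/- embryo for Prrx1.

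**Figure D3:**
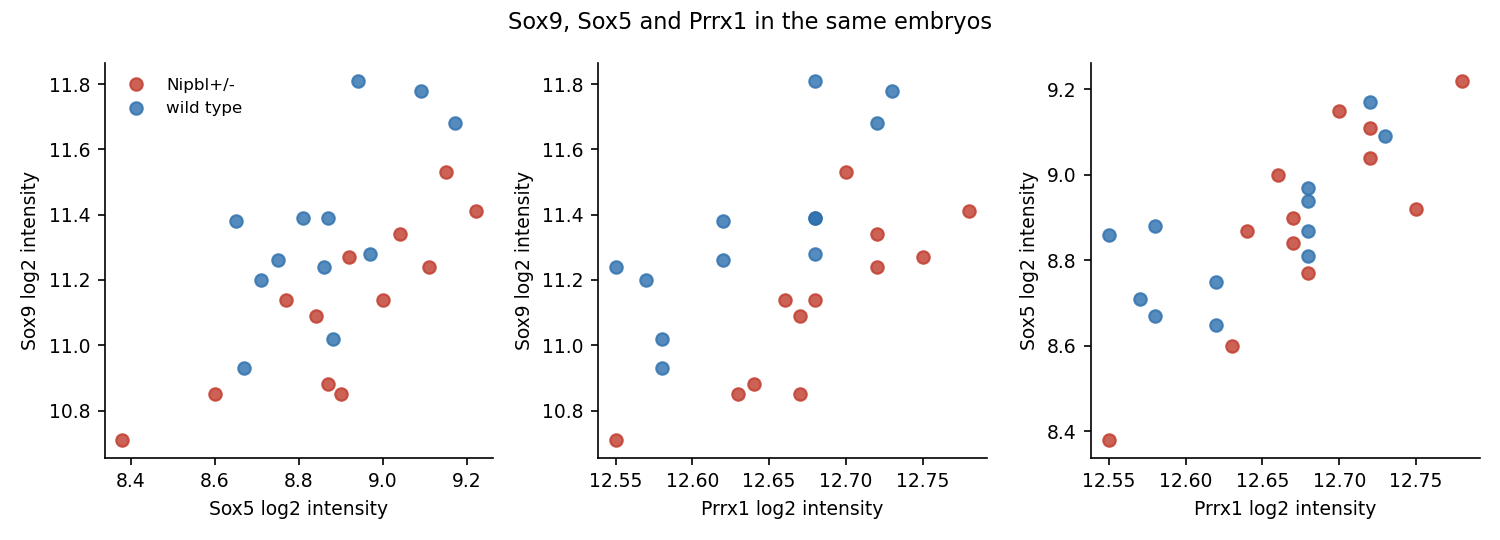
Sox9, Sox5 and Prrx1 plotted against each other (log2 intensity), 1 point per embryo, for 12 Nipbl+/- and 12 wild type embryos. The points rise together in both genotypes, with r = 0.75 for Sox5 and Sox9, 0.82 for Sox9 and Prrx1 and 0.78 for Sox5 and Prrx1 after each genotype's mean is taken off.

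The other 3 pairs were less firm. Sox5 and Prrx2 had r = 0.63 and rho = 0.67 (permutation p of 0.00217 and 0.00075, adjusted 0.0156 and 0.00675), and r = 0.55 without the 2 farthest embryos. Twist1 and Gdf5 moved in opposite directions, with r = -0.61 and rho = -0.62 (permutation p of 0.00129 and 0.00146, adjusted 0.0116 and 0.0105), but r was -0.42 without the 2 farthest embryos, and without wild type replicate 3 it was -0.52 with an adjusted p of 0.0575. Sox6 and Prrx1 had r = -0.55 and rho = -0.40 (permutation p of 0.00604 and 0.0549), so the adjusted p was 0.0362 for r and 0.132 for rho, and the relation held by only 1 of the measures. Sox6, although a partner of Sox9 and Sox5, had r = -0.50 with Sox9 and -0.28 with Sox5, neither past an adjusted p of 0.05.

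**Figure D4:**
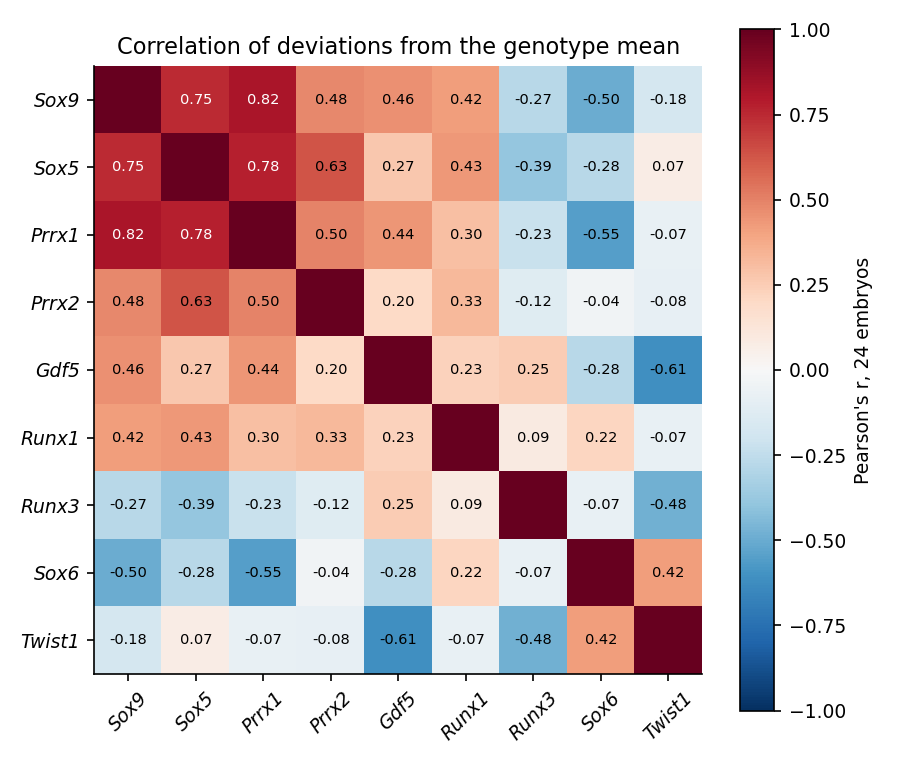
Pearson's r between the 9 regulators over 24 embryos, from deviations from the genotype mean, with the value in each cell. Sox9, Sox5 and Prrx1 form the block of values from 0.75 to 0.82, and the values of Sox6 with these 3 genes run from -0.55 to -0.28.

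The genes whose deviations were most like those of each regulator over the 24 embryos are given as a description, with no test. For Sox9 these were Serinc2 (r = 0.94), Bcl11a (0.92), a zinc finger transcription factor, and Osr2 (0.92), a zinc finger regulator of joints. For Sox5 they were Dnmt3a (0.92), a DNA methyltransferase, Lrba (0.92) and Cdk19 (0.91), a kinase of the Mediator complex. For Prrx1 they were Robo2 (0.89), a Slit receptor, Meox2 (0.89), a homeobox gene of limb muscle and mesenchyme, and again Serinc2 (0.88). The nearest gene was Bcl9 for Prrx2 (0.85), Crnde for Sox6 (0.83), Ypel5 for Runx1 (0.78), Ahcyl1 for Twist1 (0.90), Gpr137c for Gdf5 (0.85) and B230110C06Rik for Runx3 (0.84). Of the nearest genes named here, none was called between genotypes by limma. The points share an array each, and a gene chosen as the nearest of 19937 has a high r by that choice.

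Sox9 and Sox5 are also expressed in the trunk beside the limb bud, so the regulators were also set against marker lists, the median of each array and the first principal component of the residuals, 90 relations chosen after the data had been seen. The level of the somite list, taken as the log2 of its summed intensities, ran from 10.361 to 10.854 in Nipbl+/- buds and from 10.503 to 11.153 in wild type buds. It moved with Sox9 (r = 0.85, rho = 0.82, permutation p of 1e-05, adjusted 0.0009), with Sox5 (r = 0.74, rho = 0.78, permutation p of 3e-05, adjusted 0.0012) and with Prrx1 (r = 0.67, rho = 0.70, permutation p of 0.00049, adjusted 0.00882), and less closely with Runx1 (r = 0.58, rho = 0.66, permutation p of 0.00409, adjusted 0.0409). Of the 5 measured genes of the list, the one most like these regulators was Tbx18, a T-box gene of the anterior somite that limb mesenchyme also expresses, with r = 0.85 to Sox9, 0.89 to Sox5 and 0.77 to Prrx1. Uncx, which marks the posterior somite, had r = -0.30, -0.64 and -0.48 to the same genes, and Meox1, a general somite gene, -0.29, -0.20 and -0.41. Pax1 of the sclerotome had r = 0.47, 0.09 and 0.31, and Pax9, also of the sclerotome, 0.25, -0.20 and 0.22. Tbx18 itself averaged 9.64 ± 0.366 in Nipbl+/- buds and 9.97 ± 0.309 in wild type buds (SD, n = 12 each), with an adjusted p of 0.342 by limma. Meox1, the next brightest gene of the list, averaged 8.02 in Nipbl+/- and 7.93 in wild type buds. Tbx18 therefore weighs most in the summed level, and the relations of that level do not stand for all 5 genes. The paper gives a range of somite stages for these embryos. The parts of trunk tissue and of stage in the shared scatter of Sox9, Sox5 and Prrx1 were not tested.

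Across embryos 2 regulators followed the level of Nipbl within genotype, of 9 relations tested. Twist1 had r = 0.72 and rho = 0.53 with Nipbl (permutation p of 0.00038 and 0.0103, adjusted 0.00342 and 0.0462), and r was 0.65 within Nipbl+/- and 0.79 within wild type embryos. Without the 2 embryos farthest from the Nipbl median r was 0.46, and without Nipbl+/- replicate 2 and wild type replicate 3 it was 0.45 with an adjusted p of 0.140, so the relation rests on those embryos. Runx3 had r = -0.59 and rho = -0.72 (permutation p of 0.00562 and 0.0002, adjusted 0.0253 and 0.0018), with r = -0.62 without the 2 farthest embryos, -0.55 within Nipbl+/- and -0.63 within wild type embryos. With every array's median set to 0 that r was -0.49, with an adjusted p of 0.0837. Both genes also moved with the first principal component, which held 34.3% of the residual sum of squares over all genes, with r = -0.68 for Twist1 and 0.65 for Runx3 (adjusted permutation p of 0.00882 and 0.0135). Nipbl varied along that component too. The SE of its limma difference was 0.0335 with the component as a covariate, against 0.0492 without. The part of this shared component in the relations of Twist1 and Runx3 with Nipbl was not tested. Runx1 moved instead with the median of the array (r = 0.74, rho = 0.77, adjusted permutation p of 0.0012) and with the ectoderm list (r = 0.61, rho = 0.65, adjusted 0.0207), and Twist1 also with the endothelial list (r = 0.69, rho = 0.61, adjusted 0.0102). The part of array quality or of cell makeup in these relations was not tested. No relation with Nipbl passed for Sox9 (r = 0.20, adjusted permutation p of 0.525), Sox5 (0.44, adjusted 0.116) or Prrx1 (0.34, adjusted 0.207).

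The genes on which the regulators act were measured in the same buds. The cartilage list, 17 genes of matrix and of factors that act with Sox9, all measured, had 0 genes higher and 0 lower by limma, 0 at an unadjusted p under 0.05, and a median difference of -0.006, against -0.0049 for all genes. Col2a1, the main collagen of cartilage, ran from 8.69 (median 8.79) to 9.07 in Nipbl+/- buds and from 8.63 (median 8.91) to 9.16 in wild type buds, with a ratio of 0.932, 11 of 12 Nipbl+/- embryos below the wild type mean and an adjusted p of 0.637. Acan, the large proteoglycan of cartilage, averaged 5.80 ± 0.180 in Nipbl+/- buds and 5.81 ± 0.158 in wild type buds (SD, n = 12 each). Matn3, another matrix protein, had a ratio of 1.08 and an adjusted p of 0.573, and Chst11, an enzyme that sulfates chondroitin, a ratio of 0.956 and an adjusted p of 0.825. In the bone list, 11 of 14 genes were measured, and 0 were called in either direction. At an unadjusted p under 0.05 there were 3 lower genes and 1 higher gene of the 11, where 9.26% of all genes passed in either direction. The lower ones included the chains of type I collagen, with ratios of 0.840 for Col1a1 (adjusted p of 0.187) and 0.825 for Col1a2 (adjusted p of 0.265). With replicate number as a block in the limma fit, Col1a2 had an adjusted p of 0.0140. The other was Dmp1, a matrix protein of bone, with a ratio of 0.892 and an adjusted p of 0.197, which was 0.0158 once the residuals' first component was a covariate.

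The list of joint genes and Gdf5 signalling, 13 genes all measured, also had 0 calls, and its median difference was 0.02. At an unadjusted p under 0.05 there were 1 higher and 1 lower gene, where 9.26% of all genes passed in either direction. The higher one was Bmpr1a, a type I BMP receptor, with a ratio of 1.10 and an adjusted p of 0.138. It passed with array weights (adjusted p of 0.0201), with the first component as a covariate (0.0280) and without Nipbl+/- replicate 2 (0.0369), where its difference was 0.15. The lower one was Osr2, which ran from 7.01 (median 8.12) to 8.97 in Nipbl+/- buds and from 7.90 (median 8.68) to 9.84 in wild type buds. Its SDs of 0.582 in Nipbl+/- buds and 0.642 in wild type buds were wide, and its ratio of 0.623 had an adjusted p of 0.215 by limma. With replicate number as a block in the fit, the adjusted p of Osr2 was 0.000677. Osr2 was also among the genes nearest to Sox9 across embryos, as given above. Wnt4, a ligand of forming joints, had a ratio of 0.952 and an adjusted p of 0.784.

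Calls were found among related regulators and among general mesenchyme genes, in lists chosen with earlier results of these data known. Their counts beside the shares of all genes are therefore a description only. Of 14 measured relatives and partners of the group (15 listed), 1 was lower by limma and 0 were higher, where 0.527% of all genes were lower. An unadjusted p under 0.05 was found for 3 lower and 0 higher genes, where 9.26% of all genes passed in either direction. The median difference was -0.02. The called gene was Sox4, a Sox factor of progenitor cells, which ran from 9.41 (median 9.56) to 9.81 in Nipbl+/- buds and from 9.68 (median 9.87) to 10.00 in wild type buds. All 12 Nipbl+/- embryos lay below the wild type mean, although the ranges overlapped, and the difference was -0.26 ± 0.046 (SE), a ratio of 0.834 with an adjusted p of 0.00205. Its closest relative on the list, Sox11, had a ratio of 0.968 and an adjusted p of 0.776, and Shox2, a homeobox gene of proximal limb bones, a ratio of 0.920 and an adjusted p of 0.45. Hand2, a basic helix-loop-helix partner of Twist1, had a ratio of 0.919 and an adjusted p of 0.208. By its own, different test of these arrays, the paper reports Hand2 as modestly reduced and lists Bmpr1a as raised. For Hand2 it also gives a lower value by Q-RT-PCR of hindlimbs, not under a p of 0.05 by Student's t test. In zebrafish fin buds deficient for Nipbl it reports reduced hand2 by in situ hybridization.

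Of 12 mesenchyme genes, all measured, 2 were lower and 0 higher by limma, where 0.527% of all genes were lower and 0.286% higher. A ratio under 1 was found for 10 of 12, against 53.5% of all genes, an unadjusted p under 0.05 for 6, all lower, against 9.26% of all genes in either direction, and the median difference was -0.09. Snai2, a zinc finger repressor of epithelial genes, averaged 10.38 ± 0.170 in Nipbl+/- buds and 10.68 ± 0.093 in wild type buds (SD, n = 12 each), a ratio of 0.815 with an adjusted p of 0.00374 and all 12 Nipbl+/- embryos below the wild type mean. Cdh2, N-cadherin, which holds mesenchyme cells together as cartilage condenses, averaged 10.53 ± 0.103 in Nipbl+/- buds and 10.71 ± 0.112 in wild type buds, a ratio of 0.877 with an adjusted p of 0.0372. Cdh2 no longer passed once every array had its median at 0 (adjusted p of 0.0672), with embryo sex as a covariate (0.138) and without both embryos that stood apart (0.0629). Cdh11, another cadherin of mesenchyme, had a ratio of 0.910 and an adjusted p of 0.0545, which was under 0.05 in 5 other settings, at 0.00969 to 0.0471. Fibronectin, Fn1, had a ratio of 0.906 and an adjusted p of 0.114, and it passed with a trended and robust variance (0.0409) and with the first component (0.0461). Zeb2, a zinc finger repressor, had a ratio of 0.90 and an adjusted p of 0.224, and passed with the first component (0.0372). The 9 limb mesenchyme markers leaned the other way, with 2 ratios under 1. They include the regulators Prrx1 and Prrx2, so they are not a separate set, and their median difference of 0.04 was that of Prrx1. At an unadjusted p under 0.05 by limma, 3 of the 9 markers were higher and 0 lower. The macrophage markers had 8 of 8 ratios under 1 with 0 calls, and their summed level ran from 9.73 to 9.94 in Nipbl+/- buds and from 9.79 to 10.05 in wild type buds. The part of cell makeup in the lower mesenchyme genes was not tested.

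**Figure D5:**
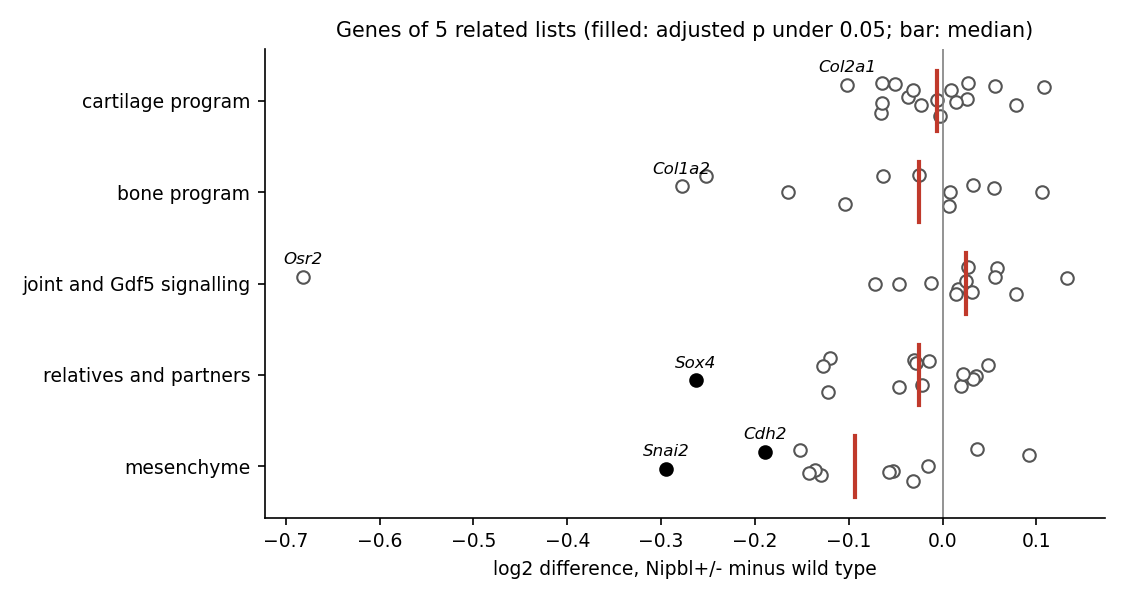
Difference in log2 intensity, Nipbl+/- minus wild type, for each measured gene of 5 related lists, with a bar at the median of each list and filled points for an adjusted p under 0.05 by limma. Filled are Sox4 (-0.26), Snai2 (-0.29) and Cdh2 (-0.19), the last of which loses its call in some settings, and Osr2 lies farthest left at -0.68 and is unfilled, with an adjusted p of 0.215.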

How the data were processed

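The deposited values were log2 intensities, 1 array per embryo. The authors used GenePattern (Expression File Creator) on the scanner files, and the submitters' notes name RMA. RMA corrects background, normalizes quantiles and summarises each probe set, so a change common to most genes may not be seen. The sources used here do not give its version. Array medians ran from 7.24 to 7.39. Precision is limited by the number of arrays.

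Of 28159 probe sets, 21640 had 1 gene symbol, 1321 several and 5198 none listed. The brightest probe set per gene gave 19937 genes, and 21553 probe sets matched RefSeq (GRCm38.p6) by Entrez ID. In R 4.3.3, lmFit and eBayes of limma 3.58.1 gave the difference of Nipbl+/- from wild type, and p was adjusted by Benjamini-Hochberg across the 19937 genes. The authors' own test was run in Comparative Markers Selection. The fit was tested on simulated data. Correlations, two-sided, used 100000 permutations in Python 3.11.15, and 36 pairs were tested since the level of Runx2 was not analysed here. Somite stage and dissection batch of an embryo were not used here.

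The genes and lists were chosen with earlier results of these data known. Named were all members, from each list the called genes and up to 3 more with the smallest p, and Col2a1 and Acan as known targets of Sox9. Nearest genes were the 3 with the highest r. The alternatives tried were the mean of probe sets, leaving out the dimmest genes (quantile 0.25), a trended and robust variance, array weights, array medians set to 0, a replicate block, embryo sex, the first component, Spearman's rho and, chosen after seeing the data, leaving out the embryos that stood apart. Replicate numbers were taken from the sample titles. No arrays were identical.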

Additional observations from a re-analysis of the deposited data

How the results depend on the processing

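None of the 9 regulators was called by limma under any of the 11 other settings. The count of all called genes, 162, was 281 with array weights and 515 with the first component as a covariate, and 179 to 210 without embryos that stood apart (chosen after seeing the data). The share of higher genes, 35.2%, was 24% with embryo sex, 24.4% without wild type replicate 3, 43.1% with the first component and 43.7% with array medians set to 0. The 3 calls in the program lists became 5 with a trended and robust variance, array weights or the replicate block, 8 with the first component, and 2 to 4 without the embryos that stood apart. Signs turned only where differences were near 0. Sox5 was -0.031 and Prrx2 -0.024 with embryo sex. Twist1 was 0.0023 with array weights, 0.0064 with medians at 0 and 0.016 with embryo sex, and ran from -0.023 (without wild type replicate 3) to 0.021 (without Nipbl+/- replicate 2), with 0.0037 without both. Gdf5 ran from -0.047 to 0.0084 and Acan from -0.033 to 0.010 when those embryos were left out, both above 0 only without wild type replicate 3, and Acan was 0.0054 with medians at 0. The 6 correlated pairs numbered 5 to 8. The 2 relations with Nipbl became 1 with medians at 0, and 1 to 3 without the embryos that stood apart. The 1 contrast between members became 0 with the replicate block, 2 with embryo sex, and 0 to 1 without those embryos. The causes were not tested.

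The sample titles do not say what the shared replicate numbers mark, so whether they pair the embryos is not known. Over all genes, same-numbered embryos were not alike as a rule. Correlations of same-numbered embryos ran from -0.355 to 0.282 with a median of -0.0217, 5 of 12 over 0.1, and 1 Nipbl+/- and 3 wild type embryos were most like their own number. With the replicate block 169 genes were called, Cdh2 lost its call (adjusted p of 0.0621), Osr2 (-0.68, 0.000677), Col1a2 (-0.28, 0.0140) and Cdh11 (0.0416) gained one, Sox9 had a difference of -0.24 with an adjusted p of 0.110, and the deviations of same-numbered embryos had r = 0.61 for Sox9 and 0.68 for Prrx1 (adjusted permutation p of 0.169 and 0.107, n = 12 pairs).

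A bud holds several cell types, 1 array was made per embryo, and RMA compresses low signals, which bears on Runx1, Runx3, Gdf5, Acan and Dmp1.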

Other observations

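Because Sox9 varied with Sox5 and Prrx1 among embryos, the difference between 2 regulators within an embryo was compared between genotypes for all 36 pairs, a comparison chosen after the data had been seen. Sox5 minus Sox9 ran from -2.37 (median -2.25) to -1.95 in Nipbl+/- buds and from -2.87 (median -2.51) to -2.14 in wild type buds. The value rests on probe sets of unlike affinity, so only its change between genotypes can be read. It was 0.28 ± 0.0719 (SE) higher in Nipbl+/- buds, and all 12 Nipbl+/- embryos lay above the wild type mean (permutation p of 0.00073, adjusted 0.0263 over the 36). The call was lost with the replicate block (adjusted p of 0.0996), without wild type replicate 3 (0.0626) and without both embryos that stood apart (0.0860). Sox9 minus Prrx1 differed by -0.28 in Nipbl+/- relative to wild type buds, with 11 of 12 embryos below the wild type mean and an adjusted permutation p of 0.0889, which was 0.0311 with embryo sex as a covariate. The other pairs did not pass.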
